A study of Mus musculus with 12 samples.

Results

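The ADAMTS genes described here encode secreted metalloproteases with thrombospondin repeats, together with a related protein that has no protease domain. The set holds 10 genes (Adamts1, Adamts2, Adamts4, Adamts5, Adamts8, Adamts9, Adamts12, Adamts15, Adamts16 and Adamtsl2) of the 20352 genes measured. They were found by symbol: every probeset to which the platform annotation gives exactly 1 gene symbol, that of a member, was taken, and a gene's value in an array was the median over its probesets. The 10 genes were represented by 176 probesets, from 8 for Adamts5 and Adamts15 to 40 for Adamts9.

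Hearts of C57BL/6J mice 12 weeks old were compared. The infarcted group gave 6 samples from the border zone, the tissue beside a myocardial infarct, and the sham group gave 6 samples from the site labelled as border zone in sham-operated hearts, all taken 2 weeks after surgery. The series text calls the 6 samples of a group biological replicates. No transgene or drug is named for either group, and the labels do not say how the infarct was made or whether hearts were pooled. Biotin-labelled cDNA from each sample went on its own whole-transcript array, which reports a log2 signal for each probeset.

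ADAMTS proteases act outside the cell and remodel the matrix. Several of them (the group sometimes called aggrecanases or versicanases) cut the large hyaluronan-binding proteoglycans, others remove the amino-terminal propeptides of fibrillar procollagens, and others act on microfibrils or on cartilage oligomeric matrix protein. In the heart they are best known from development, when the breakdown of versican shapes the trabeculae and valves, and in adult tissue many of them are made by fibroblasts and vessel wall cells.

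The 12 arrays were nearly equal in brightness (array medians of 6.997 to 7.03 in sham and 7.04 to 7.06 in infarcted samples, log2), and no 2 arrays held identical values. Genes listed as markers of ventricular cardiomyocytes were bright in both groups, which goes with heart tissue but does not settle the site sampled. The summed linear signal of 8 such genes was 83242 to 87170 in sham and 77454 to 84047 in infarcted arrays. Their sham means ran from 12.38 (Ryr2) to 13.92 (Actc1), near the highest value of any probeset, 14.37. Whether signals this bright still follow the amount of RNA was not tested. Of the 8, 0 were called (limma, 3 with an unadjusted p under 0.05). That 0 depended on the setting: 5 of the 8 were called lower with probesets averaged or with median polish, and 3 with arrays centred on their medians or with a trended prior. For the marker counts that follow, 10.1% of all genes were called higher and 10.2% lower in limma. Fibroblast markers differed between the groups, with 7 of 8 higher in infarcted samples and a summed signal of 10824 to 11852 against 16957 to 21103. Macrophage markers (7 of 8 higher, 2778 to 3637 against 4456 to 6041) also moved with the groups. So did markers of tendon and cartilage cells (7 of 8 higher, 649 to 780 against 1540 to 2329). Smooth muscle and pericyte markers were divided (5 of 8 higher, 5623 to 7673 against 7637 to 8759). Acta2, Tagln, Cnn1, Cspg4 and Pdgfrb rose. Myh11, Rgs5 and Kcnj8 were not called (-0.138, 0.018 and -0.073 on the log2 scale). Of 8 endothelial markers none was called in limma (2 with an unadjusted p under 0.05, at most 2 higher or 1 lower over 22 alternatives, summed signal 9540 to 11969 against 10115 to 12605). Of 7 atrial markers 2 were higher and 1 lower, with a summed signal of 3587 to 4348 against 11481 to 15158. Nppa made up most of that difference (2249 to 3264 against 10588 to 11955). The other 6 atrial markers summed to 982 to 1459 in sham arrays, to at most 989 in infarcted replicates 1 to 3 and to 1423 to 3898 in infarcted replicates 4 to 6, a split made after the values were seen, and Myl7, Myl4 and Sln were not called (adjusted p = 0.455, 0.203 and 0.473 in limma). None of 8 adipocyte markers was called in limma (1 with an unadjusted p under 0.05, summed signal 2363 to 2807 against 2300 to 3879). Adipoq, Plin1, Cidec, Retn and Cfd were highest of the 12 arrays in infarcted replicate 5 (6.59, 7.92, 8.16, 7.91 and 9.07), but Fabp4, Lep and Ucp1 were not. Of 7 epicardial markers 1 was higher (379 to 553 against 470 to 922). Upk3b, Msln, Upk1b and Krt19 were highest in that same replicate (7.92, 6.75, 7.16 and 6.40), but Wt1, Aldh1a2 and Muc16 were not.  The part of these cell types in the values below was not tested, and in such bulk samples more cells of a type and more RNA per cell cannot be told apart.

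Of the 10 genes 7 rose in infarcted tissue and none fell (limma, adjusted p under 0.05 over all genes), and the 3 that were not called also had means above sham. Among all 20352 genes, 20.3% were called, 10.1% higher and 10.2% lower. The median change of the 10 genes was 0.53 on the log2 scale, against -0.04 over all genes. The 10 genes were chosen with earlier results of these data known, so their count is a description of the family and not independent evidence. The changes fell into a wide range: Adamts2 (the procollagen N-proteinase), Adamtsl2 and Adamts12 rose at least 2-fold, while Adamts4, Adamts8, Adamts15 and Adamts16 rose 1.33-fold to 1.66-fold. Adamts1, Adamts5 and Adamts9 did not pass, with ratios of 1.43, 1.23 and 1.12. The 3 genes with the large rises were also the 3 for which every infarcted array lay above every sham array, which held for 5.97% of all genes.

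**Figure D1:**
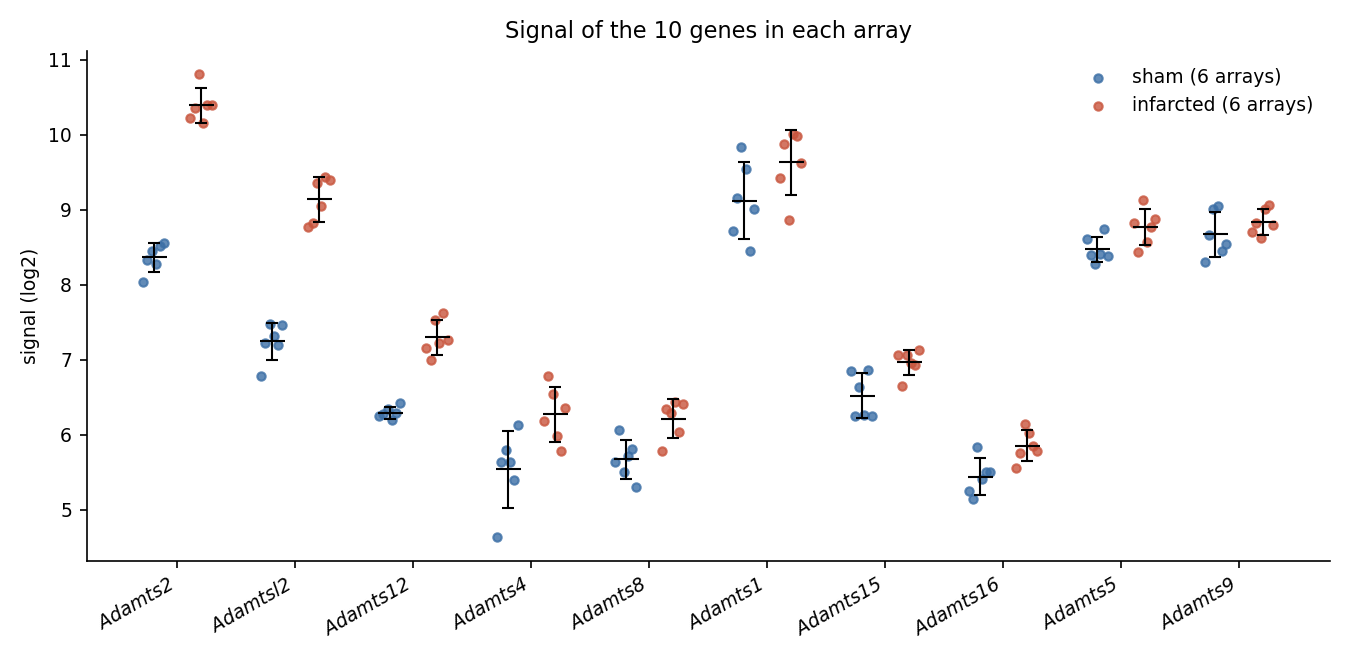
Log2 signal (vertical axis) of the 10 genes in the 6 sham and 6 infarcted arrays, ordered from the largest to the smallest change. Points are arrays and bars the mean with its SD. The groups are apart for Adamts2, Adamtsl2 and Adamts12 and overlap for the other 7 genes.

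Adamts2 encodes the main enzyme that removes the amino-terminal propeptides of procollagens I, II and III, a step needed for regular fibrils. In sham arrays its signal was 8.03 at the lowest, 8.39 at the median and 8.56 at the highest, and in infarcted arrays 10.15, 10.38 and 10.81. Every infarcted array was thus above the brightest sham array by more than the whole sham range. The means were 8.36 ± 0.19 and 10.39 ± 0.23 (SD, n = 6 each), a ratio of 4.08 (95% interval 3.43 to 4.84, adjusted p = 4.43e-08 in limma).

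Adamtsl2 encodes a secreted glycoprotein with thrombospondin repeats and no protease domain that binds fibrillin and latent TGF-beta binding proteins. In humans, mutations of the gene cause geleophysic dysplasia, a disorder of short stature with thickened heart valves. Its sham signals ran from 6.79 through a median of 7.27 to 7.48, and its infarcted signals from 8.76 through 9.20 to 9.43. Here too the groups were clearly apart. It rose 3.71-fold (95% interval 3.004 to 4.59, limma adjusted p = 5.55e-07).

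Adamts12, a relative of Adamts7 that can cut cartilage oligomeric matrix protein, lay within 6.20 and 6.43 in sham arrays (median 6.28). In infarcted arrays it lay between 7.001 and 7.62 (median 7.24). The sham arrays were close together, with an SD of 0.08 against 0.23 in the infarcted group. The ratio was 2.01 (95% interval 1.73 to 2.33, limma adjusted p = 7.79e-06). Leaving out any of the 12 arrays in turn left these 3 genes called, with adjusted p of at most 4.02e-07 for Adamts2, 3.44e-06 for Adamtsl2 and 3.83e-05 for Adamts12.

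The RefSeq promoter table (build GRCm38.p6) held 5 of the 10 genes. The 250 bases before the transcription start are printed here for the 3 genes with the large rises, and capitals mark every match to a motif searched. Positions count from the start used in that table, which for Adamts9 and Adamtsl2 is not the outermost end of the annotated gene. The motifs were AP-1 (TGANTCA), a SMAD element (CAGACA), RUNX (TGNGGT), TEAD (GGAATG) and the GC box (GGGCGG), each on both strands, and the TATA box (TATAAA) on the strand shown. No matches overlapped each other in these windows.
Adamts2, chr11:50601835-50602084, plus strand: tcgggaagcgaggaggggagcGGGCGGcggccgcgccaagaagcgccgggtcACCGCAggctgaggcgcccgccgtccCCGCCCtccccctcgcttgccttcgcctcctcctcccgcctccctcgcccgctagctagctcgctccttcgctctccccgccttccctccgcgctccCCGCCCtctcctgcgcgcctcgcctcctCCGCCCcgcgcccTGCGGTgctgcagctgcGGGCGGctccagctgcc
Adamtsl2, chr2:27079129-27079378, plus strand: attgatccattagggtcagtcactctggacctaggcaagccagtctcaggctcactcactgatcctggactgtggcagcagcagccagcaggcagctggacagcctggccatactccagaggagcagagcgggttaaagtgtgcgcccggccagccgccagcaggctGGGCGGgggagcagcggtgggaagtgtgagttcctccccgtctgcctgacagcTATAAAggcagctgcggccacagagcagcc
Adamts12, chr15:11064523-11064772, plus strand: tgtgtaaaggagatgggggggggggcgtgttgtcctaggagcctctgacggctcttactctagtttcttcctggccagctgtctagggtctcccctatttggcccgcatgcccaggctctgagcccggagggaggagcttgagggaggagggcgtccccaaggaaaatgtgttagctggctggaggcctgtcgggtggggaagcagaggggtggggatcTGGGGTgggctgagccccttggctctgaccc
The share of G and C was 78.0% for Adamts2, 62.8% for Adamtsl2 and 63.2% for Adamts12, against a median of 52.4% over the 32851 promoters of the table. Adamts2 had 5 GC boxes and 2 RUNX matches, with no TATA box. Adamtsl2 had 1 GC box and a TATA box whose first base lay at -30 from the start, and Adamts12 had a RUNX match at -31 only. Of all promoter windows of this length 32.7% held a GC box, 40.1% a RUNX match and 7.59% the TATA box. The letters of AP-1 (6.75% of windows), the SMAD element (17.1%) and TEAD (12.6%) did not occur in these 3 windows. Such matches describe the letters only.

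The smaller rises were seen in proteases that cut proteoglycans, with Adamts16 beside them. Adamts4, an aggrecanase, ran from 4.63 to 6.13 in sham arrays (median 5.64) and from 5.79 to 6.78 in infarcted arrays (median 6.27). Of its infarcted arrays 4 were above every sham array, and sham replicate 1 was the dimmest of all 12. The ratio was 1.66 (95% interval 1.20 to 2.31, limma adjusted p = 0.029). That ratio exceeds what its typical probeset showed: the median change of its 11 probesets was 0.269 on the log2 scale, against 0.734 for the gene value. Adamts8, first described as an inhibitor of vessel growth, had sham signals of 5.31 to 6.07 (median 5.67) and infarcted signals of 5.78 to 6.44 (median 6.32). All 6 infarcted arrays lay above the sham mean and 4 above the whole sham group, with a ratio of 1.46 (95% interval 1.19 to 1.78, limma adjusted p = 0.011).

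Adamts15, which can cut versican and aggrecan, was measured between 6.25 and 6.86 in sham (median 6.45) and between 6.65 and 7.12 in infarcted arrays (median 7.01). Its infarcted arrays were all but 1 above the sham group. The ratio was 1.36 (95% interval 1.12 to 1.65, limma adjusted p = 0.0253). Adamts16, which is best known from kidney and gonad and can cut fibronectin, had sham signals from 5.14 to 5.84 (median 5.46) and infarcted signals from 5.56 to 6.14 (median 5.81). Only 3 infarcted arrays exceeded the highest sham array. Its ratio was 1.33 (95% interval 1.11 to 1.59, limma adjusted p = 0.0268).

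Adamts4, Adamts8 and Adamts16 lay near the dim end of the array. The 30th percentile of gene means was 5.26, and the sham means were 5.54 for Adamts4, 5.67 for Adamts8 and 5.44 for Adamts16. Adamts8 stayed past the threshold with any array left out (adjusted p 0.00289 to 0.0282). The other 3 of the smaller rises did not: Adamts4 was called in 8 of the 12 fits (adjusted p 0.0133 to 0.0649), Adamts15 in 7 (0.0122 to 0.0581) and Adamts16 in 8 (0.00705 to 0.0616). Without infarcted replicate 3 only 4 of the 10 genes were called (Adamts2, Adamts8, Adamts12 and Adamtsl2), and without infarcted replicate 6 or sham replicate 2 there were 5. Without infarcted replicates 4 and 5, the pair to which an earlier analysis of these data gave the most atrial and adipocyte marker signal, there were also 5, Adamts15 (adjusted p = 0.0702) and Adamts16 (adjusted p = 0.104) being lost. With dim probesets left out Adamts16 was not called (adjusted p = 0.0831), and the change of Adamts4 was 0.445 in place of 0.734 on the log2 scale (adjusted p = 0.00612).

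**Figure D2:**
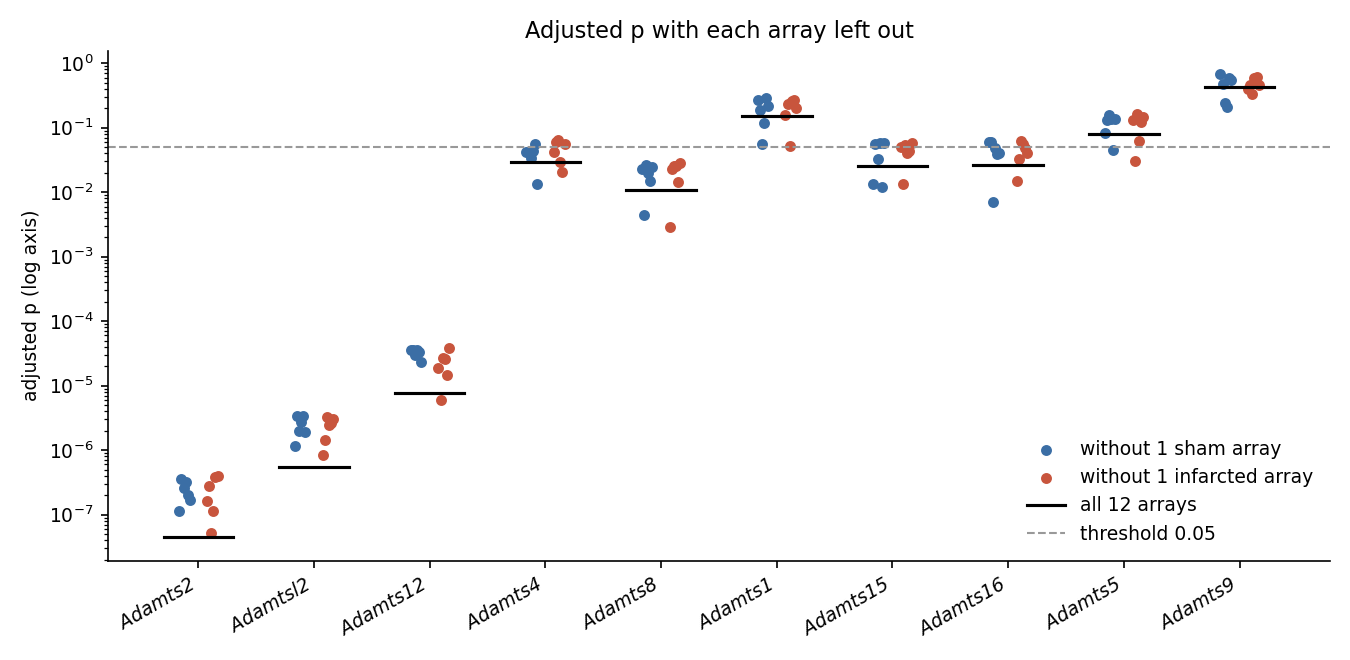
Adjusted p (vertical log axis) of the 10 genes with all 12 arrays (bar) and with each sham or infarcted array left out (points). Adamts2, Adamtsl2, Adamts12 and Adamts8 stay under the dashed threshold of 0.05 in all 12 fits, while points of Adamts4, Adamts5, Adamts15 and Adamts16 lie on both sides of it.

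The 3 genes that did not pass cut versican and aggrecan as well. Adamts5, the main aggrecanase of mouse cartilage, had sham signals of 8.28 to 8.74 (median 8.4) and infarcted signals of 8.44 to 9.13 (median 8.80). Of its 6 infarcted arrays 4 were above the sham group, and the ratio was 1.23 (95% interval 1.04 to 1.45, limma adjusted p = 0.0813). Its result lay near the threshold: it passed when probesets were averaged (adjusted p = 0.0435), with median polish (0.0305) and without infarcted replicate 2 (0.03) or sham replicate 5 (0.0456).

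Adamts1, an inhibitor of vessel growth that also cuts versican, spread widely in both groups. Its sham signals ran from 8.45 to 9.84 (median 9.08) and its infarcted signals from 8.87 to 10.01 (median 9.75). The SD was 0.51 in sham and 0.44 in infarcted arrays, and the ratio of 1.43 (95% interval 1.004 to 2.03) did not pass (limma adjusted p = 0.151). Adamts8 had a like ratio and a smaller SD in each group. Adamts9, a versican-cutting protease needed for heart development in the mouse, ran from 8.30 to 9.05 in sham (median 8.61) and from 8.62 to 9.06 in infarcted arrays (median 8.81). The groups overlapped over most of their range, with a ratio of 1.12 (95% interval 0.924 to 1.36, limma adjusted p = 0.426). Neither Adamts1 nor Adamts9 was called when any 1 of the 12 arrays was omitted.

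Within the groups Adamts1 and Adamts9 varied together and Adamts5 ran the opposite way. Sham replicates 3 and 4 had the highest signals of both Adamts1 and Adamts9 in their group, and infarcted replicate 3 had the lowest of both. That same infarcted array had the highest Adamts5. Pearson's r of Adamts1 with Adamts9 was 0.912 in sham (Spearman's rho 0.886, exact permutation p = 0.0181 and 0.0333, n = 6) and 0.895 in infarcted arrays (rho 0.943, exact permutation p = 0.00972 and 0.0167, n = 6). With Adamts5 the r of Adamts1 was -0.898 in sham (rho -0.771, exact permutation p = 0.0167 and 0.103, n = 6) and -0.846 in infarcted arrays (rho -0.771, exact permutation p = 0.0375 and 0.103, n = 6). Without the 2 arrays farthest from the Adamts1 median, r with Adamts9 was 0.998 and 0.849, and r with Adamts5 -0.695 and -0.525. These pairs were picked out after their values were seen among 90 relations (45 pairs in each group). None of the 90 passed after Benjamini-Hochberg adjustment (exact permutation adjusted p = 0.406 for 3 of the 4 relations given and 0.609 for Adamts1 with Adamts5 in infarcted arrays), and 7 had an unadjusted p under 0.05. With 6 arrays a group, the smallest p that the 720 orderings can give is 0.0028.

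**Figure D3:**
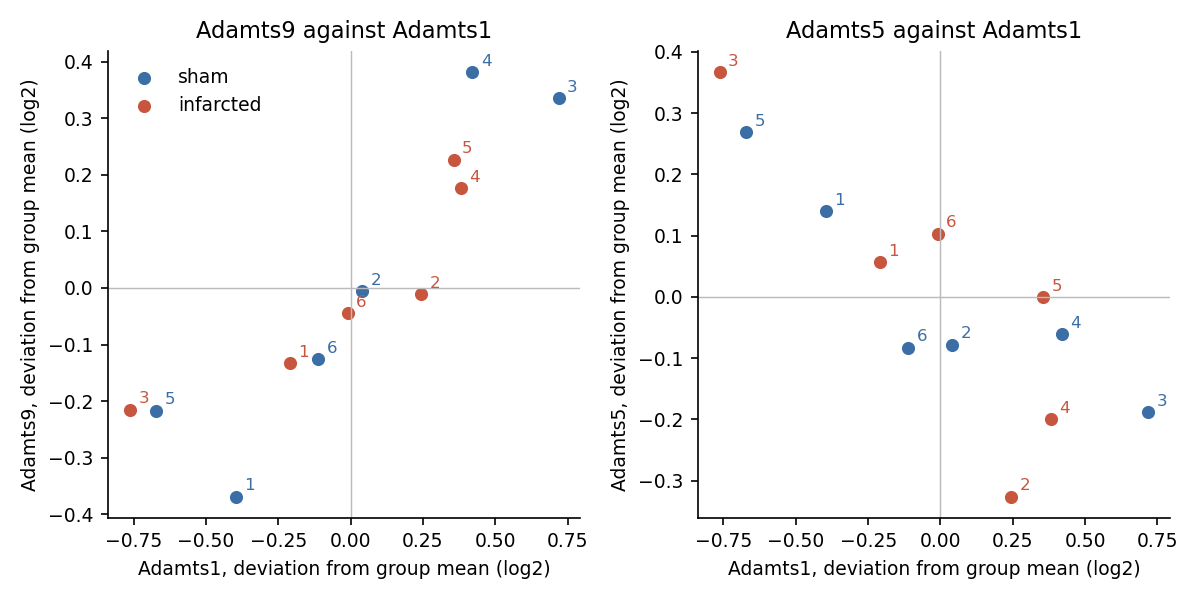
Deviation of Adamts9 (left) and Adamts5 (right) from the group mean against that of Adamts1 (log2), 1 point per array with its replicate number. In both groups Adamts9 rises and Adamts5 falls along Adamts1.

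The promoter table also held Adamts1 and Adamts9, whose windows are shown with the same motifs in capitals. The correlation of these genes within the groups did not pass adjustment, and a link with the promoters was not tested.
Adamts1, chr16:85803114-85803363, minus strand: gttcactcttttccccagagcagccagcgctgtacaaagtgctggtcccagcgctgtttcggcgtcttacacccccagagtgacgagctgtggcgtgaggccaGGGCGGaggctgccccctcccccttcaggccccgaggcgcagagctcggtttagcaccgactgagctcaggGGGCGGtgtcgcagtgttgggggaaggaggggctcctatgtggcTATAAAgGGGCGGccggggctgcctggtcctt
Adamts9, chr6:92943535-92943784, minus strand: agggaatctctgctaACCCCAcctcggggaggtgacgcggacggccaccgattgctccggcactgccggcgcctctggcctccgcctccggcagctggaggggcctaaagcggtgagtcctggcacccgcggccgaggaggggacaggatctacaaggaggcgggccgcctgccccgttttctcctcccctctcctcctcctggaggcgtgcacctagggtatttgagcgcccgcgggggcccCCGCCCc
Adamts1 had 3 GC boxes and a TATA box that began at -32, while Adamts9 had 1 GC box, 1 RUNX match and no TATA box. Their GC content was 65.6% and 71.2%. Neither window held the letters of AP-1, the SMAD element or TEAD.

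Adamts1 and Adamts5 lie next to each other on chromosome 16 of GRCm38 (85793827 to 85803113 and 85858157 to 85901125), 55.0 kb apart with a single annotated gene between them. Adamts8 and Adamts15 neighbour each other on chromosome 9 (30942562 to 30963838 and 30899155 to 30922452), 20.1 kb apart with none between. The change of Adamts1 exceeded that of Adamts5 by 0.21 (95% interval -0.67 to 1.07, exact permutation test, two-sided, adjusted over 3 pairs p = 0.641), and that of Adamts8 exceeded that of Adamts15 by 0.10 (95% interval -0.38 to 0.56, exact permutation adjusted p = 0.641). These intervals leave room for sizeable differences, so the pairs are not shown to change alike. Adamts2 and Adamts14 both belong to the procollagen N-proteinases. Adamts14 ran from 5.61 to 6.07 in sham and from 5.78 to 6.18 in infarcted arrays (ratio 1.12, limma adjusted p = 0.3). Adamts2 rose by 1.86 more than Adamts14 changed, on the log2 scale (95% interval 1.46 to 2.27, exact permutation adjusted p = 0.00649 from p = 0.00216, the smallest that 924 splits allow). Adamts3, the remaining enzyme of that group, differed by -0.08 (limma adjusted p = 0.409).

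The other 16 ADAMTS and ADAMTS-like genes measured gave 4 higher and 1 lower. Over all 26 genes of the family 11 rose (42.3%) and 1 fell (3.85%), with a median change of 0.29. Among all genes 10.1% were called higher and 10.2% lower. The 26 include the 10 genes chosen with earlier results of these data known. Adamtsl3, a relative of Adamtsl2 without a protease domain, rose 2.13-fold, from 6.42 ± 0.13 to 7.50 ± 0.21 (SD, n = 6, limma adjusted p = 3.56e-06). Adamts10, whose product binds fibrillin microfibrils, rose 1.94-fold (limma adjusted p = 6.9e-06), and its closest relative Adamts6 rose 1.48-fold (adjusted p = 0.00259). Adamts17, mutated in a Weill-Marchesani-like syndrome in humans, rose 1.41-fold (limma adjusted p = 0.0185), but not without dim probesets (adjusted p = 0.0952) or without infarcted replicates 4 and 5 (0.0898). Adamts7, which like Adamts12 can cut cartilage oligomeric matrix protein, fell by 0.48 on the log2 scale (limma adjusted p = 0.00782). All 6 of its infarcted arrays (7.34 to 7.90) were below all 6 sham arrays (7.93 to 8.43). The other 6 proteases differed by -0.19 to 0.16 and the other 5 ADAMTS-like genes by -0.17 to 0.29, none of them called.

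**Figure D4:**
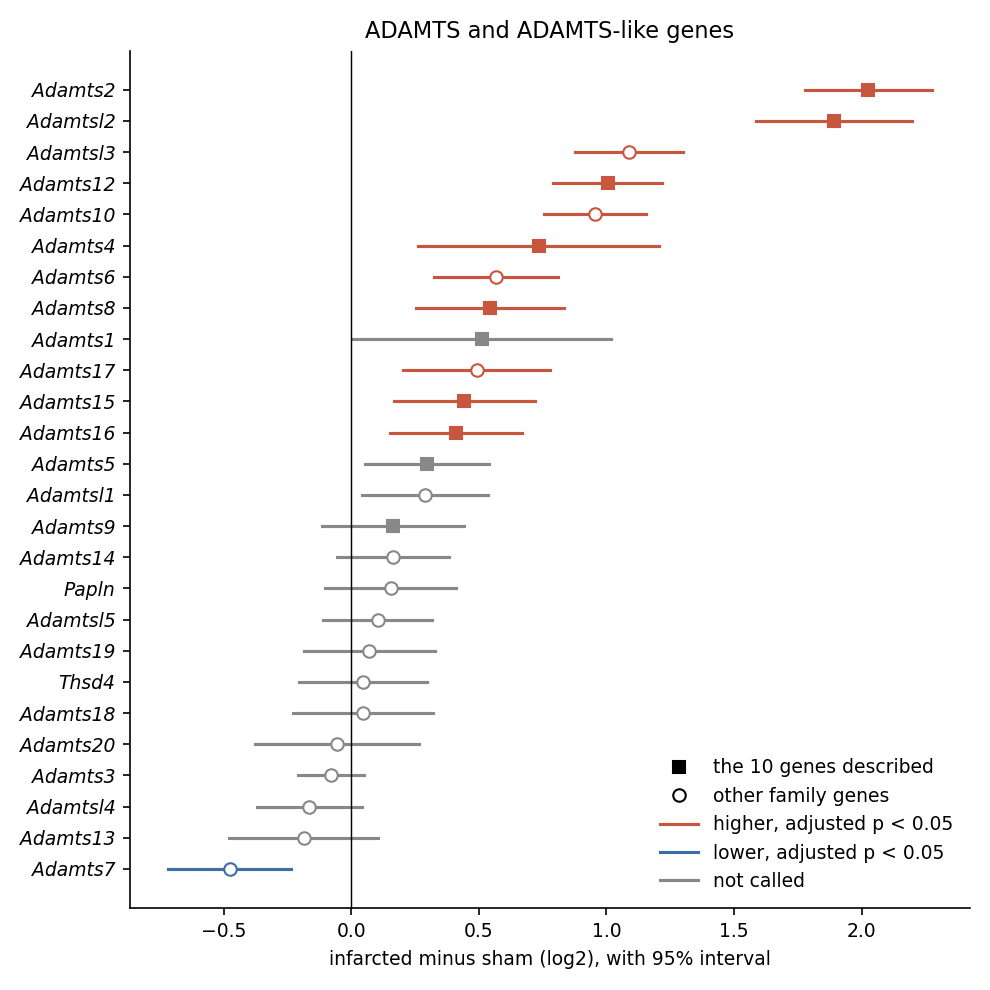
Change between infarcted and sham arrays (log2, horizontal axis, with 95% interval) for the 26 ADAMTS and ADAMTS-like genes measured, with the 10 genes described as filled squares and the rest as open circles. Adamts2 and Adamtsl2 lie near 2, and Adamts7 is the only called fall.

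Many genes for reported substrates of these proteases rose as well, in lists that also hold genes that are not substrates. Among all genes 10.1% were called higher and 10.2% lower. Of 11 genes for hyalectans, link proteins and hyaluronan synthases 3 rose (27.3%) and none fell, with a median of 0.07. Vcan, the versican gene, rose 3.59-fold (limma adjusted p = 1.92e-07), and the hyaluronan synthase Has2 1.69-fold. Acan, for aggrecan, rose from 4.54 to 6.065 on the log2 scale (limma adjusted p = 1.13e-05), with no fold given since its sham mean lay under the 30th percentile of gene means. Bcan and Ncan, the other hyalectan genes, differed by -0.345 and -0.159 and were not called (limma adjusted p = 0.169 and 0.429). Of 12 procollagen and procollagen processing genes 8 rose (66.7%) and none was called lower in limma. Their median was 0.63, and 9 had an unadjusted p under 0.05. Tll2, a relative of Bmp1 named after its values were seen, differed by -0.345 (adjusted p = 0.0889) and was called lower without dim probesets, with probesets averaged, with median polish and without infarcted replicate 2. Col1a1 and Col1a2 also stand in the fibroblast marker list. The substrates of Adamts2 were among them, with Col1a1 5.87-fold, Col3a1 4.21-fold and Col1a2 4.11-fold higher. Bmp1, which removes the propeptide at the opposite end of procollagen, rose 2.15-fold.

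Of 14 other reported substrates 9 rose (64.3%) and 1 fell (7.14%), against 10.1% and 10.2% of all genes, with a median of 0.61. Comp, which Adamts12 and Adamts7 can cut, rose 13.3-fold (limma adjusted p = 2.78e-09), as did Fmod (fibromodulin), while Thbs1 rose 7.14-fold and Fn1 (fibronectin) 6.13-fold. Efemp1, for a fibulin, fell by 0.84 on the log2 scale (adjusted p = 0.000747). Among 12 microfibril and latent TGF-beta genes, a list that holds binding partners of Adamtsl2, 10 rose (83.3%) and none fell, with a median of 1.23. Ltbp2 rose 8.95-fold, Mfap4 6.81-fold, Mfap5 5.18-fold and Tgfb3 2.78-fold. The fibrillin gene Fbn1 rose 4.65-fold. Ltbp1, for a latent TGF-beta binding protein, and Tgfb1 were not called (-0.089 and 0.287 on the log2 scale, limma adjusted p = 0.502 and 0.4).

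Candidate regulators of ADAMTS activity were taken as 13 inhibitors, uptake receptors and processing enzymes, and how strongly each acts on these proteases was not tested. Of these 4 rose (30.8%) and 1 fell (7.69%), against 10.1% and 10.2% of all genes. Their median change was 0.10. Timp3, the chief tissue inhibitor of ADAMTS proteases, differed by 0.06 between means of 11.83 ± 0.17 and 11.89 ± 0.16 (SD, n = 6, limma adjusted p = 0.708). Lrp1, the endocytic receptor that clears Adamts4 and Adamts5 from the matrix, rose 2.00-fold (limma adjusted p = 6.9e-06). Timp1 rose 8.98-fold, Timp2 1.86-fold and Pcsk5, a proprotein convertase, 1.35-fold. Timp4 was lower by -0.88 on the log2 scale (limma adjusted p = 0.0306), and leaving out 1 array ended this call in 7 of 12 cases.

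Arrays deviate from their group mean in every gene, and genes can be ranked by how alike these deviations are. Over the 12 arrays, and among the 14245 genes not in the dimmest 30 percent, those most like Adamts2 were Foxp2, Col14a1 and Vgll3 (r of 0.906, 0.895 and 0.893). For Adamtsl2 they were Bgn, Arhgap11a and Aebp1 (0.926, 0.924 and 0.921), and for Adamts12 Fgd2, Pamr1 and Tmem52 (0.961, 0.931 and 0.904). These names are a description, with no test. Fgd2 and Tmem52 did not differ beyond the threshold between groups (0.08 and -0.14 on the log2 scale, Tmem52 being called lower with probesets averaged or with median polish), whereas Pamr1 rose by 2.40, Col14a1 by 2.19 and Bgn by 1.21.

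Probesets cover separate parts of a gene, and their changes show how evenly a gene moved. Of the 176 probesets 69 were called higher and none lower (39.2%), against 10.7% called among all 241576 probesets. Every one of the 19 probesets of Adamtsl2 rose (0.88 to 2.91 on the log2 scale), as did 21 of 22 of Adamts2, whose remaining probeset differed by 0.04 while the others rose by 1.30 to 2.39. Of 24 probesets of Adamts12 18 rose. The smaller rises rested on fewer of them: 4 of 10 for Adamts8, 4 of 23 for Adamts16, 2 of 11 for Adamts4 and 1 of 8 for Adamts15. The brightest probeset of Adamts8 (mean 7.29) differed by -0.057 and was not called. All 4 called probesets of Adamts16 were dim ones (under 5.58, the 30th percentile of probeset means), 3 of them with changes of 1.33 to 1.59, and its other probesets ranged from -0.62 upwards. In Adamts1, Adamts5 and Adamts9 no probeset was called, but 11 of 11, 7 of 8 and 39 of 40 were above 0.

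Whether probesets of a gene changed unequally was asked with diffSplice of limma over probesets that were not dim, which called 9.34% of 15004 genes. It called 4 of the 10, namely Adamts2 (adjusted p = 2.45e-15), Adamtsl2 (3.63e-05), Adamts4 (0.00649) and Adamts8 (0.0353). In simulated data this test called unchanged genes more often than its threshold allows, so values near the threshold carry little weight. A version that weights probesets by their precision, tried after seeing the data, called 5, adding Adamts12. For Adamts4 the called probeset among the brighter ones rose by 1.09 while another differed by 0.02. The probesets tested differed by 0.25 to 0.62 for Adamts1 and by 0.01 to 0.43 for Adamts9. Neither gene was called (diffSplice adjusted p of 1 in both).

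**Figure D5:**
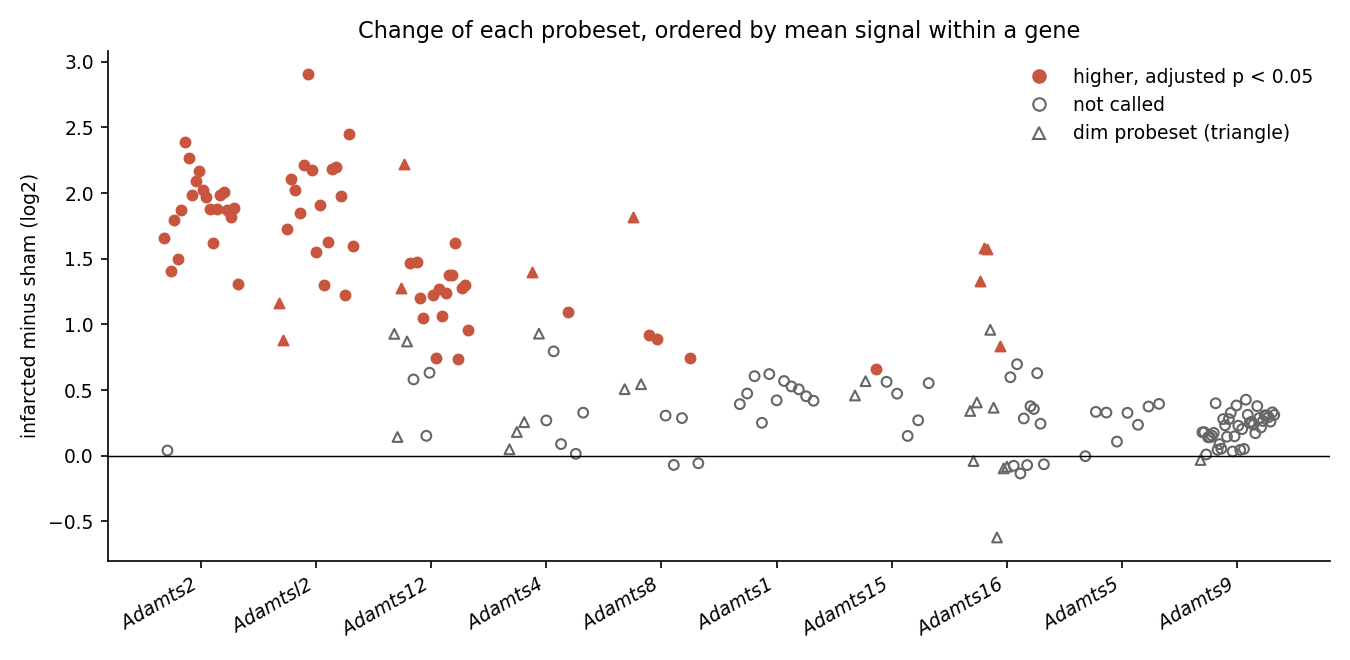
Change of each of the 176 probesets between infarcted and sham arrays (log2, vertical axis), ordered within a gene by mean signal. Filled symbols are called higher, open symbols are not called, and triangles are dim probesets under 5.58. Nearly all probesets of Adamts2 and Adamtsl2 are filled, and none of Adamts1, Adamts5 or Adamts9 is.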

How the data were processed

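Total RNA was extracted with Trizol and labelled with biotin using a whole-transcript kit, per the labels' protocols. Affymetrix Power Tools was used by the authors, per the submitters' processing notes. How probes were summarised, background corrected and normalized is not given in the sources used here. Values as deposited were taken to be log2 signal because they span 1.52 to 14.37. No source names the base of the logarithm, and all ratios depend on it. Array medians were close, though each infarcted median lay above each sham median. The number of arrays, 6 per group, limits the precision, and intervals are 95%.

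Of 241576 probesets 212097 had 1 symbol, 4475 several and 25004 none. A probeset shared by Adamts9 and another gene was left out. Of 20416 symbols 2742 were updated through RefSeq synonyms (no member was), leaving 20352 genes. Groups and replicate numbers came from titles. Tests on gene values and on probesets used lmFit and eBayes of limma 3.58.1 (R 4.3.3, two-sided, no block, no dim filter) with Benjamini-Hochberg adjustment over all genes or probesets and a threshold of 0.05. Pairs of genes were compared by within-array differences (exact permutation over 924 splits; the 95% interval holds the shifts that test did not reject). Tests were run on simulated data, where diffSplice called too many unchanged genes. Figures used matplotlib 3.10.9.

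The 10 genes, the companion and marker lists and the tests were chosen with earlier results of these data known. Named were all 10 genes, called family genes, up to 4 called genes per direction of each companion list, Vcan, Timp3, Lrp1 and Comp, and the 3 closest genes of the 3 members with the smallest p. Tll2, Bcan, Ncan, Fbn1, Ltbp1 and Tgfb1 were added after their values were seen.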

Additional observations from a re-analysis of the deposited data

Results flagged for a closer look

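In 6 of the 120 groups of 6 arrays examined (57 genes and 3 gene pairs, each in both groups), a single array stood apart from its group (gap over range above Dixon's 95% critical value). Chance flags about 1 in 20 groups, and none of the 6 was a group of the 10 ADAMTS genes described. In the family, Adamtsl1 was at 5.68 in infarcted replicate 2 against 6.21 to 6.41 in the other 5 arrays, and Adamtsl3 was at 7.92 in infarcted replicate 3 against 7.37 to 7.49. Without infarcted replicate 2 Adamtsl1 was called (0.39 on the log2 scale, limma adjusted p = 0.00432), and it was not with all arrays (0.29, adjusted p = 0.0969). Adamtsl3 was called in every fit with an array left out.

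Among substrates and inhibitors, Col1a2 was at 8.14 in sham replicate 1 against 8.58 to 8.84 in the others. Fmod was at 9.80 in infarcted replicate 2 against 10.29 to 10.53. Thbs1 was at 10.20 in infarcted replicate 1 against 10.75 to 10.98, and Timp3 was at 11.50 in sham replicate 5 against 11.83 to 11.96.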

How the results depend on the processing

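The count of 7 ADAMTS genes called higher ranged from 5 to 8 over the 10 alternatives that did not leave out 1 array: 8 with probesets averaged or with median polish, 6 without dim probesets, 5 without infarcted replicates 4 and 5, and 7 in the rest, including arrays centred on their medians. With each array left out it was 4 to 7, the lowest without infarcted replicate 3. No member was called lower under any of these (limma). The count over all genes, 4124, ranged from 3454 to 4138 with an array left out and from 3123 to 5674 otherwise. The labels tie no replicate numbers together. Deviations of same-numbered arrays correlated from -0.051 to 0.101, which gave no sign of pairing but cannot exclude it. With the replicate block the same 7 members and 3802 genes were called. The excess of Adamts2 over Adamts14 (1.863) did not pass with the replicate block (exact sign-flip adjusted p = 0.0938 over the 3 gene pairs). Its p before adjustment was the smallest that 6 pairs of arrays can give. Unequal change within a gene was called in 2 of the 10 genes with probesets under the 50th percentile left out, where fewer probesets are tested, in 6 with all probesets, in 3 to 4 with an array left out, and in 5 with precision weights, an alternative chosen after seeing the data. Over 57 genes and 22 alternatives, 1215 of 1251 values kept their side of the threshold, 25 lost it, 11 gained it and none reversed. The 57 are the 26 of the family, those named from the companion lists by the stated rule and the 9 closest genes.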
